A study of Rattus norvegicus with 14 samples.

Results

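Genes that drive DNA replication and cell division were measured in skin from male CD hairless rats, some chronically exposed at 94 GHz, a millimetre-wave frequency, and some sham exposed. The set was a list of 36 named genes, 15 that act around the start of DNA synthesis and in S phase and 21 that act in mitosis. A gene counted as measured when an array probe carried a transcript accession that the rat RefSeq gene table assigns to its symbol and that probe rose clearly above background on at least 6 of the 14 arrays. This gave 31 of the 36 genes, 14 of S phase and 17 of mitosis, among 18609 genes measured in all. No probe was matched to Mki67, Top2a, Bub1b, Cenpe or Mcm5, so these 5 genes have no values here. All 31 matched genes passed the background filter, 30 of them on all 14 arrays, and Ccne2 was well above background on 8 arrays, 4 of each group.

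The study held 6 exposed and 8 sham animals, 1 array each. Exposure ran for 3 hours a day on 3 days a week over 5.5 months, and the sham rats are labelled as unexposed. Both groups were males of 1 strain, and the labels name no allele, other agent or age. RNA came from whole skin biopsies, which mix epidermis, hair follicles, dermis and underlying tissue, so that fewer dividing cells and less RNA per dividing cell cannot be told apart.

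Cells that commit to division switch on successive waves of genes. Around the start of S phase, E2F transcription factors release the cyclin E genes, the loading factors and subunits of the MCM helicase, and the enzymes that make deoxynucleotides. Later, in G2 and mitosis, the MuvB complex acts with B-MYB and FOXM1 on a further set of promoters. These hold CCAAT boxes and a short element called the cell cycle genes homology region (CHR). Cyclin B with Cdk1, the Polo and Aurora kinases, the spindle motors and the ubiquitin machinery of the anaphase-promoting complex are then made. In skin the dividing cells lie in the basal epidermis, in the sebaceous gland and, during hair growth, in the matrix of the follicle, whose descendants make the inner root sheath, marked by Krt25, and the hair shaft, marked by Krt85.

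The promoters of the 2 classes carry different letters, and 5 of them are printed as examples, from genes that recur in the results below. The sequences are from RefSeq (assembly GRCr8), cover the 150 bases just before the annotated gene start, and read 5′ to 3′ on the strand of the gene. Capitals mark CCAAT (printed as ATTGG where it lies on the opposite strand), the CHR letters TTTGAA, and the E2F letters TTTCCCGC or TTTGGCGC, each searched on both strands.
Ccnb2, chr8:79981659-79981808, minus strand: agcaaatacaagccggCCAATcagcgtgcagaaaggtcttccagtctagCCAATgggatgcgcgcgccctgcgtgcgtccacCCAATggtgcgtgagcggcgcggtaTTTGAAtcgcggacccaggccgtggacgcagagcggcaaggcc
Cdk1, chr20:19265143-19265292, plus strand: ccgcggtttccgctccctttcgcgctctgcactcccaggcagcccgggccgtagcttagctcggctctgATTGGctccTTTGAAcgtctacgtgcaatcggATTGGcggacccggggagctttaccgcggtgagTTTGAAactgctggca
Cdc20, chr5:137255800-137255949, minus strand: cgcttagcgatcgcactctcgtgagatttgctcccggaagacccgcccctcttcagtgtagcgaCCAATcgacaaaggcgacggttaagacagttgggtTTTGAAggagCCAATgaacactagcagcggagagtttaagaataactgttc
Mcm6, chr13:42404353-42404502, minus strand: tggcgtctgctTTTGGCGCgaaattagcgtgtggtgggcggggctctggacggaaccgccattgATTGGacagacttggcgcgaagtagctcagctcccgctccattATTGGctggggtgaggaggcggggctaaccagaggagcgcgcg
Tyms, chr9:120776084-120776233, minus strand: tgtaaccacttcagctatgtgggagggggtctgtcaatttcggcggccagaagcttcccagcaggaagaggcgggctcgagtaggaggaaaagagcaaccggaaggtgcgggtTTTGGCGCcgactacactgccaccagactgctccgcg
Ccnb2 held 3 CCAAT boxes upstream of 1 CHR match, Cdk1 held 2 of each, and Cdc20 held 2 CCAAT boxes with 1 CHR match. Mcm6 held 1 E2F match and 2 CCAAT boxes, and Tyms held 1 E2F match. Promoter windows of 300 bases, 250 before the gene start and 50 after it, were found for 11 of the 15 S-phase genes and 17 of the 21 mitosis genes. These 17 are not the 17 measured mitosis genes. They include Mki67, Top2a, Bub1b and Cenpe, which have no values here, and lack Ccna2, Aurkb, Tpx2 and Ube2c. The 11 S-phase windows include that of Mcm5, also without values. The CHR letters were in 11 of the 17 mitosis windows and 1 of the 11 S-phase windows, the latter being Mcm2, against 18.4% of all 33469 rat promoter windows. The E2F letters were in 0 of the 17 mitosis windows and 5 of the 11 S-phase windows (Mcm3, Mcm5, Mcm6, Mcm7 and Tyms), against 1.45% of all. CCAAT was in 14 of the 17 and 7 of the 11, against 37.5% of all. Each printed mitosis window held a CHR match and each printed S-phase window an E2F match. Not every gene that recurs below did so, as Ccnb1 had no CHR match and Pcna no E2F match. No 2 matches overlap in the 5 printed windows, though TTTGAA and TTTGGCGC share their first 4 letters. A match describes the sequence and does not show that a factor binds there.

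Values are log2 of the processed spot signal minus the 75th percentile of the same array, so that 0 is the level below which 75% of the spots of that array lie. They compare animals for the same gene; brightness differs between probes for reasons other than the amount of RNA, so genes are not ranked by level. The 75th percentile of the signal was between 1074.7 and 1966.0 in the exposed arrays and between 804.5 and 1967.0 in the sham arrays, and 69.4% to 76.8% of spots were well above background. The 14 arrays came from 4 slides: 2 sham arrays shared slide 1, 2 exposed arrays shared slide 2, slide 3 carried 3 exposed with 3 sham arrays, and on slide 4 a single exposed array lay beside 3 sham arrays. The keratinocyte genes Krt5, Krt14 and Krt1 each had a probe above background on at least 6 arrays. Skeletal muscle genes were present to varying degrees, with a mean gene-centred level between -1.67 and 4.45 in exposed and between -2.39 and 3.17 in sham animals.

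One array stood apart and touches most results below. Sham animal 6 had the dimmest array (75th percentile 804.5) and the lowest weight when limma estimated array quality, 0.13 where the other arrays lay between 0.40 and 2.15. Across all genes its median absolute distance from the other sham animals was 0.39, against 0.10 to 0.17 for the other sham animals. Of the 31 genes, 26 were lower there than the median of the other sham animals, while 46.5% of all genes were lower. By more than 0.5, 13 of the 31 were lower. The share of all genes lower by more than 0.5 was not counted in any animal, so counts past 0.5 do not set the 31 apart. Adipocyte and endothelial marker genes were also low in that animal, with mean gene-centred levels of -0.93 and -1.0. So were inner root sheath genes (-1.32), hair shaft keratins (-1.09) and signals of the hair matrix (-0.52). These 3 follicle lists were low in sham animal 1 too, at -1.32, -1.69 and -0.49. B and plasma cell genes were high in sham animal 6, at 0.76. The part of cell composition or signal in the cell cycle values of sham animal 6 was not tested. Exposed animal 3 had the next lowest weight, 0.40. There 19 of the 31 genes were lower than the median of the other exposed animals, against 48.1% of all genes, and 5 of the 31 were lower by more than 0.5. Low counts were not particular to sham animal 6. In exposed animal 2, 29 of the 31 genes were below the other exposed animals, 1 by more than 0.5, against 46.7% of all genes. The median distance of its mitosis genes was -0.33, against -0.31 in sham animal 6, and of its S-phase genes -0.22, against -0.40. Sham animal 2 had 25 genes below its group and exposed animal 4 had 24. Leaving out sham animal 6 lowered the exposed minus sham difference of 26 of the 31 genes and turned the sign of 6 (Mcm6, Cdc20, Plk1, Cenpf, Kif23 and Tpx2), and values without it are given beside the genes that moved most.

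**Figure D1:**
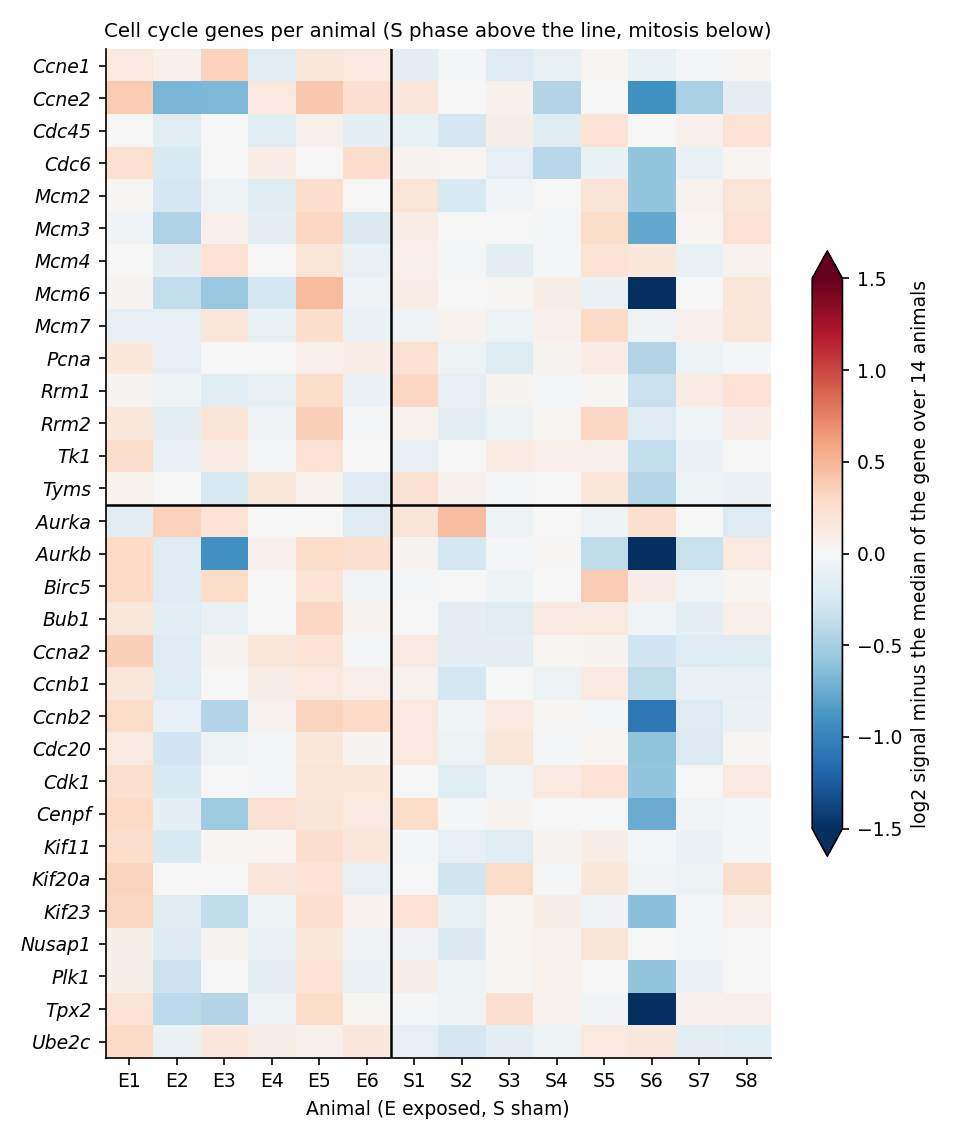
Log2 signal of each of the 31 measured genes in each animal, minus the median of that gene over the 14 animals; rows are genes (14 of S phase above the horizontal line, 17 of mitosis below), columns are animals (E exposed, S sham), blue is lower and red higher, and the colour scale ends at 1.5 on either side. The column of sham animal 6 is mostly blue and is the lowest of all animals for 20 of 31 genes, with the darkest cells at Mcm6, Tpx2 and Aurkb.

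No gene of DNA replication or mitosis differed between exposed and sham skin after correction for all genes tested. The 95% interval of the difference lay within 2-fold either way for all 31 genes and within 1.5-fold for 26. Across the array, 94.7% and 80.3% of all genes met the same limits. The limma fit called 0 of 18609 genes (0%) at an adjusted p under 0.05, and the adjusted p of each of the 31 genes was 0.9996. At an unadjusted p under 0.05 the fit passed 636 genes (3.42%), 192 of them higher (1.03%) and 444 lower (2.39%) in exposed skin, and among the 31 it passed Ccne1 and Ube2c, both higher. The values of exposed and sham animals overlapped for every one of the 31 genes. The overlap was not counted over all genes, so it does not set the 31 apart from them.

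The cyclins E bind Cdk2 and carry cells over the boundary into S phase. Ccne1 ran from -1.51 through a median of -1.20 to -1.0 in exposed animals and from -1.55 through -1.41 to -1.32 in sham animals. Of the 6 exposed animals, 5 lay above all 8 sham animals, and exposed animal 4, at -1.51, lay near the bottom of the sham range. The difference was 0.18 ± 0.076 (log2, SE, limma), a fold of 1.14, with an unadjusted p of 0.029. Ccne2 went from -6.62 to -5.53 in exposed and from -6.85 to -5.78 in sham animals, with medians of -5.74 and -6.01. Its difference was 0.19 ± 0.22, or 0.092 without sham animal 6, and as it was near background on 6 arrays its lowest values are poorly measured.

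Origins of replication are loaded by Cdc6 with the MCM helicase, and Cdc45 joins the helicase when it starts to unwind DNA. Cdc6 had a median of -3.79 in exposed animals, between -4.08 and -3.59, and of -3.94 in sham animals, between -4.44 and -3.81. Its difference of 0.21 ± 0.11 was the largest in the S-phase class over all animals and its interval, -0.028 to 0.46, included 0. Without sham animal 6 it was 0.15, below the 0.18 of Ccne1. The MCM subunits did not share a direction over all animals. Mcm2 differed by -0.0069 ± 0.12, Mcm3 by -0.064 ± 0.15, Mcm4 by 0.0011 ± 0.080, Mcm6 by 0.047 ± 0.26 and Mcm7 by -0.060 ± 0.084. With sham animal 6 left out, 4 of the 5 measured subunits were lower in exposed animals, Mcm2 by -0.087, Mcm3 by -0.17, Mcm6 by -0.16 and Mcm7 by -0.075, while Mcm4 was at 0.020, and none was called. In Mcm7, 4 of 6 exposed animals lay below all 8 sham animals, and the highest exposed animal, at 1.45, lay near the top of the sham range of 1.11 to 1.48. Cdc45 had 1 of 6 exposed animals above the sham median and differed by -0.071 ± 0.084.

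The remaining S-phase genes serve the fork and its supply of nucleotides. Pcna, the sliding clamp of DNA polymerases, had medians of 1.16 in exposed and 1.07 in sham animals, within 0.996 to 1.27 and 0.68 to 1.34, a difference of 0.088 ± 0.093, or of 0.033 without sham animal 6. Rrm2, the regulated subunit of ribonucleotide reductase, had medians of 2.13 and 2.05, within 1.92 to 2.42 and 1.87 to 2.37, a difference of 0.073 ± 0.095. Tyms, which makes thymidylate, had medians of -3.05 and -3.10 and a difference of -0.0066 ± 0.100. Tk1, the salvage kinase for thymidine, differed by 0.11 ± 0.089, and Rrm1, the large subunit of the reductase, by -0.046 ± 0.10. For each of these genes the spread among animals of a group was larger than the difference.

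Entry into mitosis depends on cyclin A and B with Cdk1. Ccna2 had a median of 0.015 in exposed animals, between -0.28 and 0.27, and of -0.22 in sham animals, between -0.37 and 0.033. Of the 6 exposed animals 5 were above the sham median and 3 were above every sham animal, and the difference was 0.18 ± 0.092 with an interval of -0.013 to 0.38. Ccnb1 had medians of -1.14 and -1.31 and differed by 0.15 ± 0.086. Cdk1 had medians of 1.09 and 1.01, within 0.78 to 1.25 and 0.41 to 1.22, and differed by 0.097 ± 0.12, or by 0.018 without sham animal 6. Ccnb2 differed by 0.21 ± 0.18, and sham animal 6 lay at -2.71 where the other sham animals were at -1.84 or above; without it the difference was 0.076.

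Exit from mitosis is set by the anaphase-promoting complex, which Cdc20 activates and Ube2c supplies with ubiquitin. Ube2c had a median of -1.22 in exposed animals, between -1.43 and -1.05, and of -1.47 in sham animals, between -1.59 and -1.18. All 6 exposed animals were above the sham median and 1 was above every sham animal. The difference was 0.18 ± 0.082 (SE, limma), a fold of 1.13, with an unadjusted p of 0.043. Cdc20 differed by 0.062 ± 0.11, or by -0.014 without sham animal 6, and Bub1, a kinase of the spindle checkpoint, by 0.064 ± 0.086.

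The mitotic kinases and spindle genes differed by less than their spread among animals. Plk1, the Polo kinase, had medians of 0.48 and 0.53 in exposed and sham animals, within 0.20 to 0.73 and -0.061 to 0.61, and differed by 0.030 ± 0.11, or by -0.043 without sham animal 6. Aurkb, the Aurora kinase of the chromosomal passenger complex, had medians of -3.61 and -3.91, within -4.67 to -3.46 and -5.30 to -3.63. Its difference of 0.26 ± 0.25 was the largest of the 31 genes and had a wide interval, -0.29 to 0.80; without sham animal 6 it was 0.079. Birc5, a partner of Aurkb in that complex, differed by 0.041 ± 0.095 and Aurka, the Aurora kinase of the spindle poles, by -0.033 ± 0.11. The motor Kif11, which pushes the spindle poles apart, differed by 0.12 ± 0.081, and Kif20a, Kif23, Nusap1, Tpx2 and Cenpf lay between -0.010 and 0.093. The SD of Kif11 was 0.15 over the 14 animals, but among sham animals it was 0.085, less than its difference. The differences of Kif23, Tpx2 and Cenpf were -0.036, -0.12 and -0.0041 without sham animal 6.

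**Figure D2:**
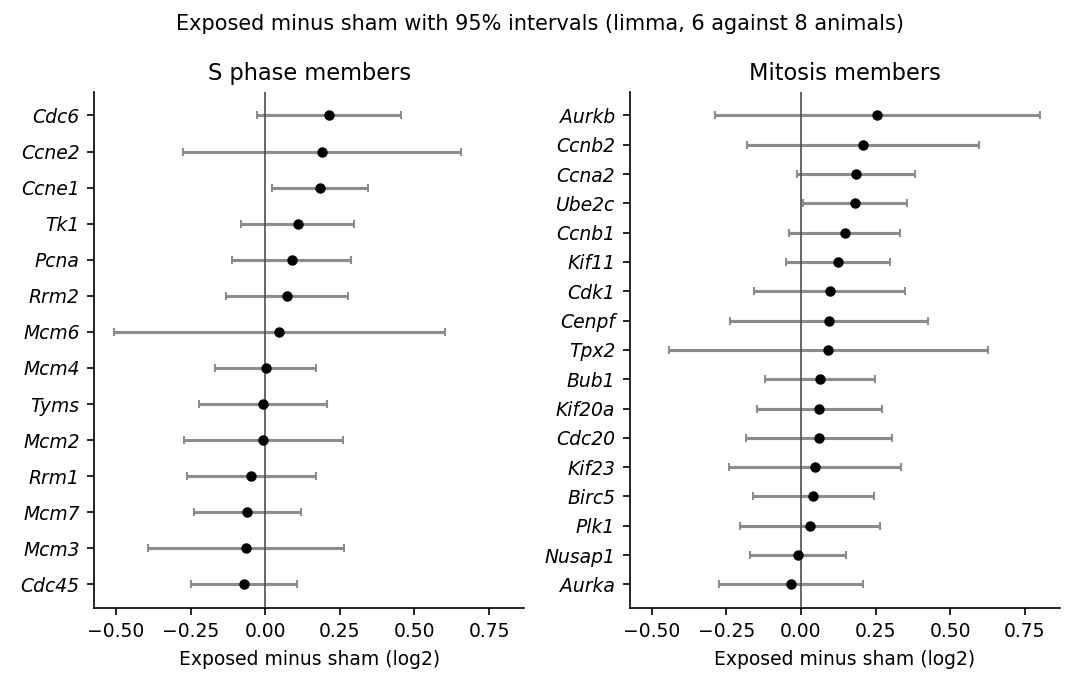
Exposed minus sham difference of each gene (log2, horizontal axis) as a point with its 95% interval from limma, 6 against 8 animals, with S-phase genes on the left and mitosis genes on the right. The intervals of Ccne1 and Ube2c exclude 0 before correction, and no interval reaches 1 (2-fold) in either direction.

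More mitosis genes lay higher than lower in exposed skin, with no single gene called in either class. Of the 17 mitosis genes 15 were higher and 2 lower in exposed animals, with a median difference of 0.092. Of the 14 S-phase genes 8 were higher and 6 lower, with a median of 0.024. Over all genes 8000 were higher and 10609 lower, with a median of -0.019. These counts and medians changed with single animals and with the slide. With sham animal 6 left out, 10 mitosis genes were higher and 7 lower, with a median of 0.048, and the S-phase median was -0.022. Within slide 3, where each group had 3 animals, 8 mitosis genes were higher and 9 lower, with a median of -0.015, and the S-phase median was 0.010. Within slide 4, with 1 exposed animal against 3 sham animals including animal 6, the medians were 0.21 and 0.068. Without exposed animal 5 the S-phase median was -0.027, and without exposed animal 1 the mitosis median was 0.038. Leaving out exposed animal 2 raised both medians, to 0.067 in S phase and 0.13 in mitosis. Marker lists of other tissue leaned in both directions. Of the 16 skeletal muscle genes 16 were higher in exposed skin, with a median of 1.26, and of the 9 inner root sheath genes 8 were higher, with a median of 0.75. Lower in exposed skin were 7 of 9 basal and 7 of 9 suprabasal keratinocyte genes. The same held for 10 of 12 fibroblast and 12 of 13 macrophage and dendritic cell genes. In each of these lists 0 genes were called. The part of these tissues in the counts was not tested beyond fits with a covariate. With the muscle score as a covariate the medians of the mitosis and S-phase genes were 0.098 and 0.028, and with Krt25 as a covariate they were 0.091 and 0.023.

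**Figure D3:**
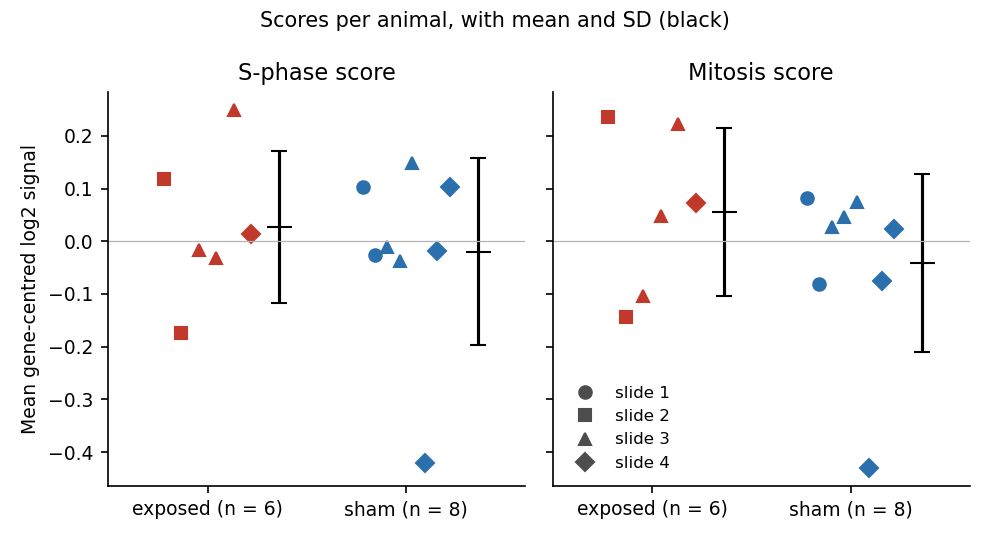
Score of each animal, the mean gene-centred log2 signal over the 14 S-phase genes (left) and over the 17 mitosis genes (right), by group with the slide as the symbol and mean and SD in black. Both scores overlap between groups, and sham animal 6 sits lowest at -0.42 and -0.43.

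Averaged per animal, exposed animals had an S-phase score of 0.027 ± 0.14 (SD, n = 6), against -0.020 ± 0.18 (SD, n = 8) for sham animals. Their mitosis score averaged 0.055 ± 0.16 (SD, n = 6), against -0.042 ± 0.17 (SD, n = 8). Without sham animal 6 the sham means were 0.037 ± 0.078 (SD, n = 7) and 0.014 ± 0.066 (SD, n = 7), so the S-phase mean of the sham animals was then the higher of the 2 groups. Exposed animals 1 and 5 had the highest mitosis scores, 0.24 and 0.22, and exposed animal 2 the lowest of its group, -0.14. Exposed animal 1 held the highest value of 8 of the 17 mitosis genes but of 1 of the 14 S-phase genes, while exposed animal 5 held the highest value of 5 genes of each class. The S-phase score minus the mitosis score ran from -0.12 to 0.087 in exposed and from -0.084 to 0.079 in sham animals, with no separation of the groups.

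Further cell cycle genes were not called either. Other S-phase genes were higher in exposed skin in 22 of 42 cases, other mitosis genes in 42 of 58, G1 drivers in 10 of 12 and cell cycle brakes in 9 of 20, with medians of 0.016, 0.055, 0.044 and -0.035 and 0 genes called in each list. The first 2 counts were 18 of 42 and 35 of 58 without sham animal 6, with medians of -0.012 and 0.044, and within slide 3 other mitosis genes were higher in 28 of 58 cases, with a median of -0.0017. The difference in the mean score of the G1 drivers was 0.082, and 0.037 without sham animal 6, and that of the brakes -0.038 and -0.0091. The smallest p-values among them belonged to Pclaf, the PCNA clamp-associated factor, at 0.28 ± 0.11, Orc6, a subunit of the origin recognition complex, at 0.32 ± 0.17, Wee1, the kinase that restrains Cdk1, at 0.26 ± 0.11, and Knstrn, a kinetochore protein, at 0.16 ± 0.079. Among brakes, Cdkn1b (the p27 inhibitor of Cdk2) was at -0.17 ± 0.077 and Cdkn2c (the p18 inhibitor of Cdk4 and Cdk6) at -0.16 ± 0.092. Among G1 drivers, Mycn was at 0.43 ± 0.33 and Ccnh, the cyclin of the Cdk-activating kinase, at 0.085 ± 0.074. The adjusted p of all 8 was 0.9996.

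The members varied modestly between animals. The SD over 14 animals had a median of 0.17 in the S-phase class and 0.20 in the mitosis class, against 0.24 over all genes; without sham animal 6 these were 0.16, 0.17 and 0.20. From the lowest to the highest animal the genes spanned 0.37 to 2.13 in the S-phase class and 0.41 to 1.91 in the mitosis class, with medians of 0.65 and 0.66. Krt25 spanned 3.47 and Krt85 spanned 5.36 over the same animals.

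The genes of both classes varied together across animals, within and between classes. The median Pearson r over pairs of genes was 0.48 within S phase (91 pairs), 0.48 within mitosis (136 pairs) and 0.47 between the classes (238 pairs), over the same 14 arrays, against 0.016 over all pairs of genes. These pairs share arrays, so array quality enters every one of them. Without sham animal 6 the medians were 0.32 within S phase, 0.52 within mitosis and 0.37 between them, against 0.022 over all pairs. Without exposed animal 3 as well they were 0.38, 0.59 and 0.42.

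Single genes followed the mitosis score to different extents. Against the mean of the other mitosis genes, r over 14 arrays was 0.91 for Kif23, 0.91 for Cdc20, 0.90 for Ccnb2, 0.90 for Cdk1, 0.87 for Ccnb1 and 0.86 for Plk1. S-phase genes reached 0.87 for Mcm6, 0.86 for Ccne2, 0.84 for Pcna, 0.82 for Tk1 and 0.82 for Mcm2, while Ccne1, Cdc45, Mcm7 and Mcm4 lay between -0.043 and 0.17. For Mcm4 this value holds for the brighter of 2 probes only. The 2 correlated with each other at 0.099, and the dimmer probe was not set against the mitosis score. Within the mitosis class Ube2c at 0.067 and Birc5 at 0.23 followed it little, and Aurka ran against it at -0.63. Without sham animal 6 the low values were higher for Ube2c (0.45), Birc5 (0.42), Mcm4 (0.29) and Cdc45 (0.25), lower for Ccne1 (0.027) and Mcm7 (0.069), and -0.66 for Aurka. Aurka was highest in sham animal 2, at 2.91, and exposed animal 2, at 2.79, where the mitosis scores were -0.081 and -0.14, and lowest in sham animal 8, at 2.25, where the score was 0.024. The high values were lower without that animal, between 0.77 and 0.83 for Kif23, Cdc20, Ccnb2, Cdk1 and Ccnb1, 0.84 for Ccne2, 0.68 for Plk1, 0.66 for Mcm6, 0.65 for Pcna, 0.64 for Tk1 and 0.62 for Mcm2. Of the genes whose promoters are printed above, Cdk1, Ccnb2 and Cdc20 thus had r between 0.77 and 0.79 without it, Mcm6 0.66, and Tyms 0.35 (0.67 over all 14 arrays). Other genes did not sort by promoter letters in this way. Kif11 (0.82) and Ccnb1 (0.77) had no CHR match in their windows, while Birc5 (0.42) and Nusap1 (0.60) had one. Ccne2 (0.84) had no promoter window, and the relation of promoter letters to r was not tested.

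Outside the cell cycle lists, genes among the 10 most like the mitosis score, by Pearson r over 14 arrays, were Psip1 (0.94), Sf3b3 (0.90), Ska1 (0.90), Parp2 (0.90), Tcn2 (0.89), Polg (0.89), Parp3 (0.89) and Ube2t (0.89). Psip1 encodes a chromatin-bound coactivator and Ska1 a subunit of the complex that ties kinetochores to microtubules. Without sham animal 6, Psip1 was again the closest (0.87) and Ska1 was the tenth (0.79), and the other 6 of these genes ranked between 12 and 37. Cd209a (0.85) and Cd209d (0.85), genes of lectins of antigen-presenting cells, then stood next to Psip1.

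Some genes were measured by 2 probes, and in sham animal 6 these disagreed. Of 7 genes with 2 matched probes, 6 (Mcm2, Mcm3, Mcm4, Rrm2, Ccna2 and Cenpf) had both above background, and the second Bub1 probe was well above background on 1 array. In sham animal 6 the brighter Mcm2 probe was -0.64 from the median of the other sham animals and the dimmer probe -2.38. For Rrm2 the values were -0.22 and -1.35, for Mcm3 -0.80 and -1.23, for Ccna2 -0.15 and -0.33, and for Mcm4 0.18 and -0.34. Cenpf went the other way, with -0.74 and -0.22. The dimmer probe was thus further down in 5 of 6 genes. Over all 14 arrays the 2 probes correlated at 0.91 for Mcm3, 0.87 for Ccna2, 0.81 for Mcm2, 0.52 for Rrm2, 0.25 for Cenpf and 0.099 for Mcm4. The sign of the exposed minus sham difference was the same for both probes in 6 of 6 genes.

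**Figure D4:**
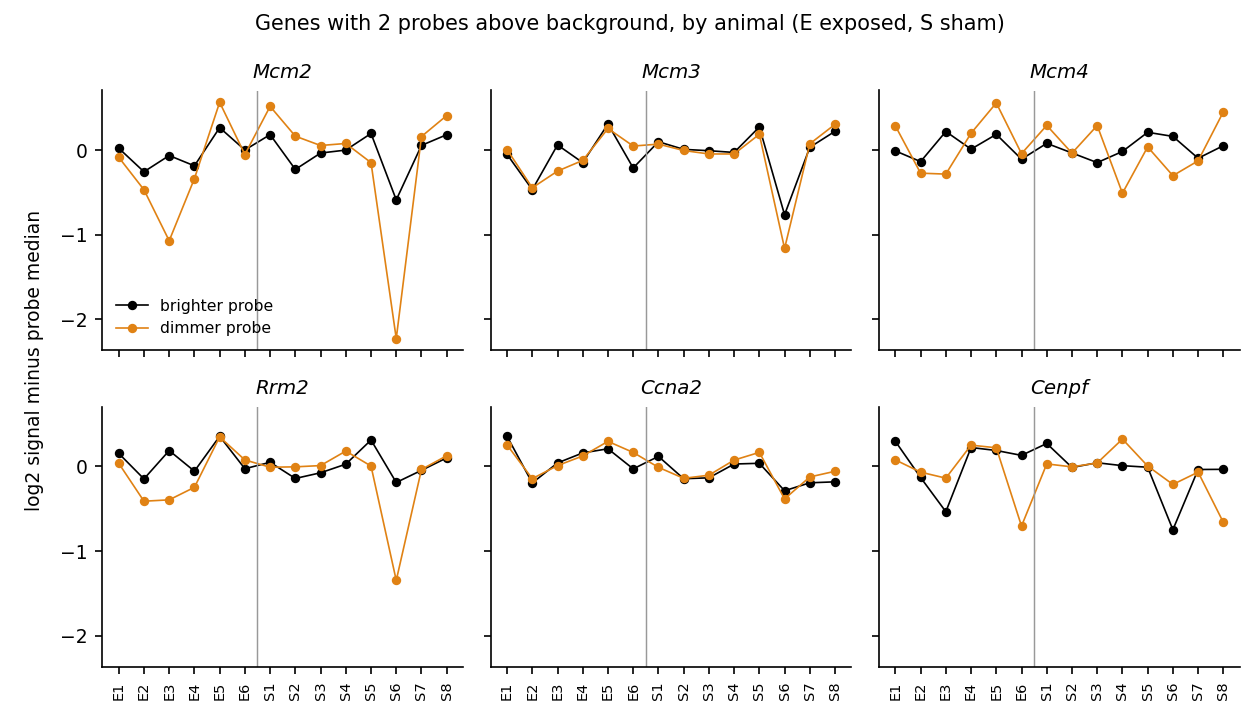
Log2 signal of the brighter (black) and dimmer (orange) probe of 6 genes in each animal (horizontal axis, E exposed, S sham), each minus the median of that probe over 14 animals. In sham animal 6 the orange line drops well below the black one for Mcm2 and Rrm2, whereas Ccna2 shows close tracking throughout and Cenpf the reverse order.

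The levels of 2 hair keratins varied widely between these animals, which allowed the cell cycle genes to be set against them. They were measured in whole biopsies, so follicle content and follicle activity cannot be told apart. Krt25, a keratin of the inner root sheath, ran from 3.95 through 5.95 to 6.82 in exposed and from 3.35 through 4.86 to 6.31 in sham animals, an 11.1-fold span in all. Krt85, a keratin of the hair shaft cortex, ran from -3.41 through -0.66 to 1.92 in exposed and from -3.44 through -1.94 to 1.54 in sham animals, a 41.1-fold span. The largest gap between neighbouring animals was 0.60 for Krt25 and 1.23 for Krt85, and the groups overlapped in both, with differences of 0.74 ± 0.53 and 0.58 ± 0.93. For each gene limma fitted the slope per log2 unit of the keratin with the group as a covariate.

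None of the 31 genes was called for Krt25. The fit called 120 of 18608 genes (0.645%), 101 with a positive (0.543%) and 19 with a negative slope (0.102%), and 0 of the 31. At an unadjusted p under 0.05 it passed 1986 genes (10.7%), 2.71% with a positive and 7.96% with a negative slope, and again 0 of the 31. The slopes had a median of -0.011 in the S-phase class, -0.020 in the mitosis class and -0.022 over all genes. Under quantile normalization these medians were 0.0052, 0.0056 and 0.0020, so the direction turned with the scaling. Without sham animal 6, 12 of 14 S-phase and 15 of 17 mitosis slopes were negative, with medians of -0.017 and -0.033, against 12088 of 18608 genes. With the array signal as a covariate 13 of 14 S-phase and 16 of 17 mitosis slopes were negative, with medians of -0.068 and -0.064. Over all genes 11409 of 18608 were negative in that fit, with a median of -0.020. An unadjusted limma p under 0.05 was reached by 2 S-phase and 3 mitosis genes, all with negative slopes and 0 called. Among the 18608 genes, 914 with a negative and 428 with a positive slope reached it. The smallest p-values over all animals belonged to Ube2c at -0.062 ± 0.039, Ccna2 at -0.069 ± 0.044 and Birc5 at -0.061 ± 0.046 in mitosis, with limma adjusted p of 0.575, 0.581 and 0.649. In S phase they belonged to Pcna at -0.045 ± 0.047, Mcm4 at -0.038 ± 0.040 and Rrm2 at -0.037 ± 0.048, with limma adjusted p of 0.75, 0.754 and 0.795. The 95% limits over the 31 genes reached from -0.22 to 0.37 per log2 unit of Krt25.

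Genes of the follicle were called in the same fit. Of 8 other inner root sheath genes 6 were called, Krt27 with a slope of 1.10 ± 0.057 (limma adjusted p = 6.34e-07), Krt28 with 1.12 ± 0.098 and Krt26 with 1.05 ± 0.15 among them, and 4 of 11 hair shaft keratins were called. Of 15 signals and transcription factors of the hair matrix 4 were called, among them Msx2 at 0.67 ± 0.063 (limma adjusted p = 9.19e-05). The cell cycle genes nearest to a call were not members of either class. Mycn, a MYC family factor, had a slope of 0.43 ± 0.12 (limma adjusted p = 0.206), and Cdkn1a, which encodes the p21 inhibitor, had a slope of -0.30 ± 0.11 (limma adjusted p = 0.328). E2f7, a repressor among the E2F factors, was at -0.15 ± 0.057, Exo1, an exonuclease of DNA repair, at -0.17 ± 0.083, Kif18a, a kinesin of chromosome alignment, at -0.095 ± 0.046, H2az1, a histone variant, at -0.054 ± 0.029 and Ccnd3, a D-type cyclin, at -0.066 ± 0.054, none of them called.

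**Figure D5:**
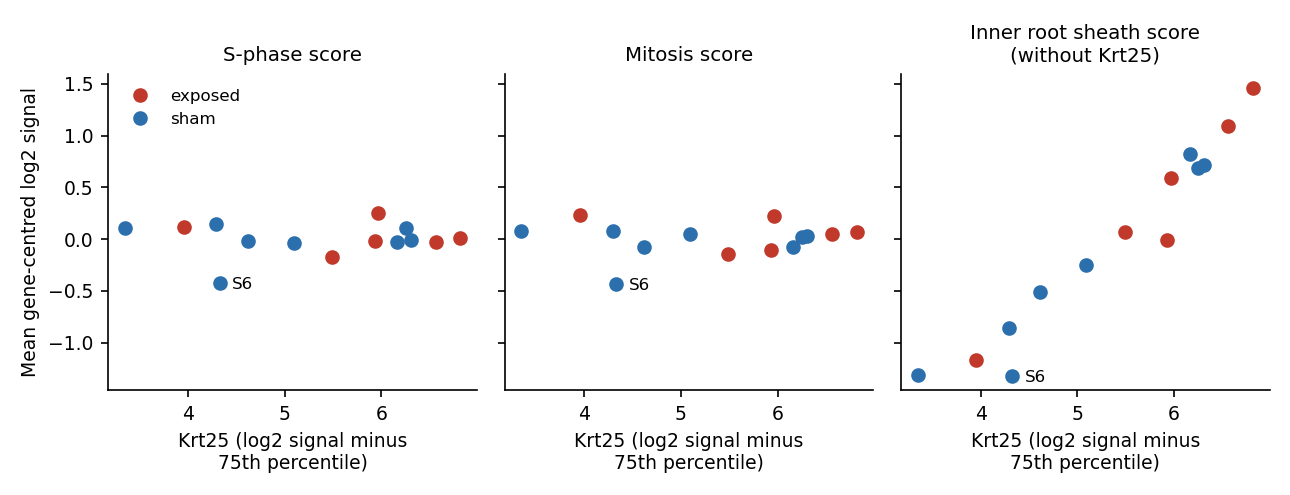
Score of each animal (mean gene-centred log2 signal, vertical axis) against its Krt25 level (log2 signal minus the 75th percentile, horizontal axis) for S-phase genes, mitosis genes and, for contrast, inner root sheath genes other than Krt25, with exposed animals in red, sham in blue and sham animal 6 marked S6. Inner root sheath scores climb from -1.32 to 1.46 across the animals, while both cell cycle scores stay between -0.43 and 0.25.

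For Krt85 none of the 31 genes was called either. The fit called 106 of 18608 genes (0.57%), 98 with a positive (0.527%) and 8 with a negative slope (0.043%), and 0 of the 31, and at an unadjusted p under 0.05 it passed 1354 genes (7.28%), 2.55% with a positive and 4.72% with a negative slope, and 0 of the 31. The median slope was -0.0058 in S phase, -0.016 in mitosis and -0.013 over all genes, and under quantile normalization the medians of the 2 classes were 0.0060 and -0.010. Hair shaft keratins were called in 8 of 10 cases, with Krt31 at 0.68 ± 0.047 and Krt81 at 0.85 ± 0.069, inner root sheath genes in 5 of 9 and hair matrix signals in 4 of 15. Among the cell cycle genes the smallest p-values belonged to Ccna2 at -0.035 ± 0.025, Bub1 at -0.032 ± 0.024 and Ube2c at -0.027 ± 0.023 in mitosis, and to Tyms at -0.031 ± 0.028, Rrm1 at -0.025 ± 0.029 and Pcna at -0.022 ± 0.027 in S phase, with limma adjusted p between 0.827 and 0.872. Outside the members, Kif18a was at -0.067 ± 0.024, E2f6, a repressive E2F factor, at -0.073 ± 0.028, Cdkn2a, the locus of the p16 inhibitor, at 0.10 ± 0.040, E2f1 at -0.046 ± 0.021, Fbxo5, an inhibitor of the anaphase-promoting complex, at -0.058 ± 0.028, Mycn at 0.15 ± 0.087 and Cdc25a, a phosphatase that activates Cdks, at 0.020 ± 0.019, and 0 of these were called.

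Correlations were also computed without the group term. Over 14 animals the Pearson r with Krt25 lay between -0.28 and 0.28 for S-phase genes and between -0.31 and 0.24 for mitosis genes, and the r with Krt85 between -0.32 and 0.26 and between -0.35 and 0.14. The lowest r with each keratin were those of Birc5 against Krt25 (r = -0.31, permutation p = 0.278, adjusted p = 0.712; Spearman rho = -0.39, permutation p = 0.170, adjusted p = 0.584) and Bub1 against Krt85 (r = -0.35, permutation p = 0.222, adjusted p = 0.819; rho = -0.33, permutation p = 0.247, adjusted p = 0.735). In all 62 correlations were computed for the 31 genes and 2 keratins, with p-values adjusted over all genes. Within slide 3 the r of Birc5 with Krt25 was -0.60 and that of Bub1 with Krt85 -0.71, over 6 arrays each. The r of the 31 genes there ran from -0.77 to 0.54 with Krt25 and from -0.79 to 0.58 with Krt85. Their medians in S phase and mitosis were -0.31 and -0.0059 for Krt25, and -0.28 and -0.35 for Krt85. Without the 2 animals farthest from the median of the keratin, the r of Birc5 with Krt25 was -0.33 and that of Bub1 with Krt85 -0.16. Without those animals (sham 1 and exposed 1 for Krt25) positive values were larger, with r of 0.74 for Cdc6, 0.60 for Aurkb, 0.59 for Ccne2, 0.58 for Cdc20 and 0.57 for Ccnb2 against Krt25, and the r of the S-phase genes ran from -0.34 to 0.74 and those of the mitosis genes from -0.33 to 0.60. The r with Krt25 were positive for 3 of 14 S-phase and 1 of 17 mitosis genes without sham animal 6. No correlation was computed within slide 4, which holds 4 arrays, but the slopes fitted there were mostly positive, with medians of 0.15 and 0.17 for Krt25 and 0.11 and 0.15 for Krt85 in S phase and mitosis. The direction of the relation with the keratins thus depended on which animals entered.

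No difference in Krt25 slopes between exposed and sham animals was called. The interaction of group and Krt25 called 0 of 18608 genes (0%) in limma and 243 at an unadjusted p under 0.05 (1.31%), 0.591% positive and 0.715% negative, and 0 of the 31 genes on either count. The median difference of slopes, exposed minus sham, was -0.028 in S phase and -0.059 in mitosis, against 0.0035 over all genes, and without sham animal 6 it was 0.016 and -0.0086.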

How the data were processed

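Skin of 14 rats was measured on one-colour Agilent arrays. The deposited scanner files hold spot intensity, made with Agilent Feature Extraction 10.7.3.1 per the file headers, which subtracts background. The authors' deposited table holds log2 values centred per probe, whose normalization the labels do not give; its 14 column medians lie between -0.00856 and 0.0119, and it correlated at 0.9999 or more with quantile-normalized scanner values, in the same direction. It served as an alternative. Control and outlier spots were left out, log2 processed signals were scaled to the 75th percentile of each array, spots of a probe were averaged, and a gene took its brightest probe among 21012 of 30367 probes well above background on at least 6 arrays. Accessions without version gave symbols for 17998 probes through RefSeq (GRCr8).

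Tests were limma 3.58.1 in R 4.3.3 (lmFit, eBayes, two-sided, Benjamini-Hochberg over all genes, threshold 0.05), tested on simulated data. Correlations used 100000 permutations. The number of arrays limits the precision. Animals were housed in pairs that the labels do not identify. The p-values therefore treat animals as independent, and replicate numbers only name them.

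The members, the lists and the named genes were chosen with earlier results of these data known. Named were fixed genes (among them Mki67, Top2a and Mcm5, which have no matched probe), per class the 3 smallest p of each comparison, 2 per further list, and the 10 genes most like the mitosis score; 3 genes that this rule names are not reported here. Other members are given as part of their role group. Alternatives covered background correction, normalization, filters, probe choice, slide, array signal, array weights, muscle and keratin covariates and leaving out arrays.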

Additional observations from a re-analysis of the deposited data

Results flagged for a closer look

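In sham animal 6 the value lay far below the other sham animals for 9 genes: Mcm3 at 0.24, Mcm6 at -4.08, Ccnb2 at -2.71, Cdk1 at 0.41, Plk1 at -0.061, Aurkb at -5.30, Cenpf at -3.65, Kif23 at -2.22 and Tpx2 at -4.42. The same animal was set apart in the S-phase score, at -0.42, and in the mitosis score, at -0.43. The gap to the nearest sham animal made up 0.86 of the sham range for Mcm6 and 0.85 for Tpx2. Sham animal 5 stood above the others for Birc5, at -0.25, where the next sham animal was at -0.54. Of 70 sets of values tested in this way 12 were picked out, where chance picks about 5%. The 11 that concern sham animal 6 share 1 array, which also had the lowest signal of the 14, and the part of that signal was not tested.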

How the results depend on the processing

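No paired analysis was possible because the replicate numbers only name animals. Exposed minus sham called 0 genes and 0 of the 31 members under all 28 alternatives, leaving out each array in turn included, with medians from -0.027 to 0.067 (S phase) and 0.038 to 0.13 (mitosis) when 1 array was left out. Signs turned for Mcm2 on slide 4 alone (0.12), with a slide block (0.0068) and with Krt25 (0.0044) or Krt85 (0.00010) as a covariate, Tyms with array weights (0.011), Krt25 (0.018) or Krt85 (0.011), Plk1 with array weights (-0.056), and Cdk1 (-0.040) and Aurkb (-0.061) within slide 3. Leaving out single arrays gave -0.087 to 0.037 for Mcm2, -0.065 to 0.036 for Tyms and -0.043 to 0.086 for Plk1.

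The count of genes called for Krt25 (120) was 79 with normexp, 521 without the filter on dim probes, 21 with a slide block, 0 on slide 3 alone, 0 on slide 4 alone, 314 with array weights, 55 by Spearman rho, and 16 without the 2 arrays farthest from the median. It was 36 to 154 with 1 array left out: 36 without exposed animal 1, 67 without exposed animal 6, and 62, 60 and 69 without sham animals 1, 2 and 3. The S-phase median slope was -0.10 within slide 3, 0.15 within slide 4, -0.068 with array signal as a covariate (mitosis -0.064) and 0.040 without the 2 farthest arrays, the mitosis median 0.17 within slide 4, and with 1 array left out they were -0.026 to 0.0049 and -0.033 to 0.027. Slopes turned for Rrm2 with quantile normalization (0.0010), the authors' deposited values (0.0010), the mean of probes (0.022) and within slide 4 (0.13), for Pcna within slide 4 (0.15) and without the 2 farthest arrays (0.032), and for Ccna2 likewise (0.038 and 0.0088).

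The count for Krt85 (106) was 54 with a slide block, 8 on slide 3 alone, 0 on slide 4 alone, 229 with array weights and 45 by Spearman rho, and 68 to 152 with 1 array left out, 68 without exposed animal 1. The S-phase median was -0.036 within slide 3 and 0.11 within slide 4, and the mitosis median 0.15 within slide 4. Within slide 4 Tyms (0.081), Rrm1 (0.16), Pcna (0.12), Ccna2 (0.029) and Bub1 (0.080) turned. No member was called under any of these alternatives. Leaving out sham animal 6, alone or with exposed animal 3, an alternative chosen after seeing the data, gave a median r of 0.32 to 0.38 within S phase and 0.52 to 0.59 within mitosis. The cause of these changes was not tested. Slides 3 and 4 hold 6 and 4 arrays, which limits their fits.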
